A study of Rattus norvegicus with 6 samples.

Results

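The axon guidance ligands and receptors were taken as all rows of the deposited gene table whose symbol belonged to the semaphorins (Sema), plexins (Plxn), neuropilins (Nrp), ephrins (Efn), Eph receptors, slits, Robo receptors, netrins (Ntn), Unc5 receptors or Dcc. The rule found 69 of the 32883 genes in the table, and 63 of them passed the filter on low counts and were tested. The rule used names only and no measured value, but it was chosen with earlier results of these data known. It also took Unc5cl, which shares domains with the Unc5 receptors but is not known as a netrin receptor.

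RNA-seq was performed on the vestibular sensory epithelium of 6 adult male Long-Evans rats, an outbred pigmented strain. The 3 IDPN-4wk rats had 20 mM 3,3'-iminodipropionitrile (IDPN), which is toxic to hair cells (HCs), in their drinking water for 4 weeks, and the 3 control rats had plain water. Utricles and cristae of a rat were pooled into a single library, so that each library is an animal and the organs cannot be told apart. Libraries held from 13358678 to 18561991 counts and all carry the same batch label. Animal codes in the labels share a prefix within the IDPN-4wk group that no control has, and if it marks a cage or litter, that and the treatment cannot be told apart.

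Axon guidance proteins steer growing nerve fibres and migrating cells, and they are also made by mature epithelia, where they act on cell contacts and on the cytoskeleton. Slits are secreted and bind Robo receptors. Class 3 semaphorins are secreted and bind neuropilins that work together with A-type plexins, while the other vertebrate semaphorins are held at the membrane and mostly bind plexins directly. Ephrins and Eph receptors are both membrane bound and signal between touching cells. Netrins are laminin-like secreted proteins that act through Dcc and Unc5 receptors. In the developing inner ear, netrins help to shape the canals, and semaphorins and Eph receptors guide the fibres of ganglion neurons.

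Slits and their receptors Robo1 and Robo2, several semaphorins, the co-receptor Nrp1, Plxna4, Epha3, Ephb6 and Unc5d were lower after IDPN exposure. Most plexins, Eph receptors and ephrins and all netrins did not pass the thresholds. Downregulated and upregulated genes had a fold change over 1.5 and a Padj, the p of the edgeR quasi-likelihood test after Benjamini-Hochberg adjustment over the 14352 genes tested, below 0.05. Of the 63 tested guidance genes, 14 (22.2%) were downregulated, where 6.62% of all tested genes were, and 1 (1.59%) was upregulated, where 3.09% of all tested genes were. In either direction this made 15 genes (23.8%), beside 9.71% of all tested genes. The median log2-Fold change was -0.23 over the tested guidance genes and 0.02 over all tested genes, and 45 guidance genes were below 0 against 18 above. When counts were scaled by library size only, without TMM, both medians shifted by about the same amount, to -0.12 and 0.13. The downregulated share of all called genes was then 50.6% in place of 68.1%, and that of the called guidance genes 85.7% in place of 93.3%.

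**Figure D1:**
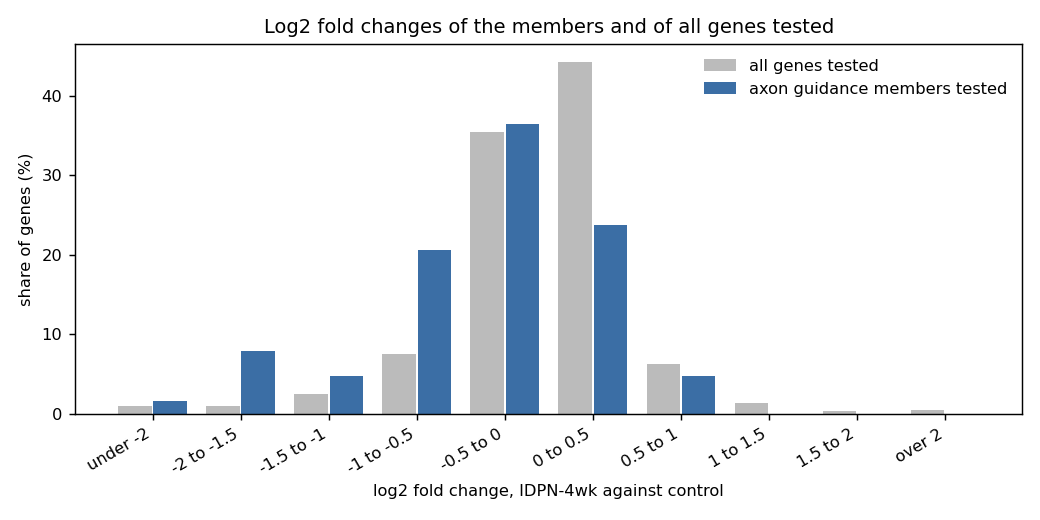
Share of genes (%, vertical axis) in each interval of log2-Fold change (horizontal axis) for the 63 tested guidance genes and for all 14352 tested genes. From -2 to -1.5 lay 7.94% of the guidance genes and 0.906% of all genes, and from 0 to 0.5 lay 23.8% and 44.3%.

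Levels are given below as CPM, counts scaled to a common library size with TMM factors, in control replicates 1, 2 and 3 and then in IDPN-4wk replicates 1, 2 and 3. They are not divided by transcript length, so single genes are not compared with each other, and in sums over a family or marker list the genes with the most counts weigh the most. Summed over all genes, the scaled level after IDPN was itself at 92.7% of control, with no overlap between libraries. An unadjusted p under 0.05 was reached by 33.1% of all tested genes (17.4% below 0 and 15.6% above), against which such counts for families and lists are to be read. The libraries of the groups did not overlap in 30 of the 63 tested guidance genes (47.6%), where 37.8% of all tested genes showed no overlap. In bulk tissue, a smaller number of cells of a type and less RNA per cell cannot be told apart. In separate rats with the same exposure, the paper counted fewer HCs in the centre of the crista but not in the other regions. From these counts it calculated a small loss of HCs in the sequenced samples. In a further group of exposed rats, it counted fewer HCs in the periphery of the crista.

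**Figure D2:**
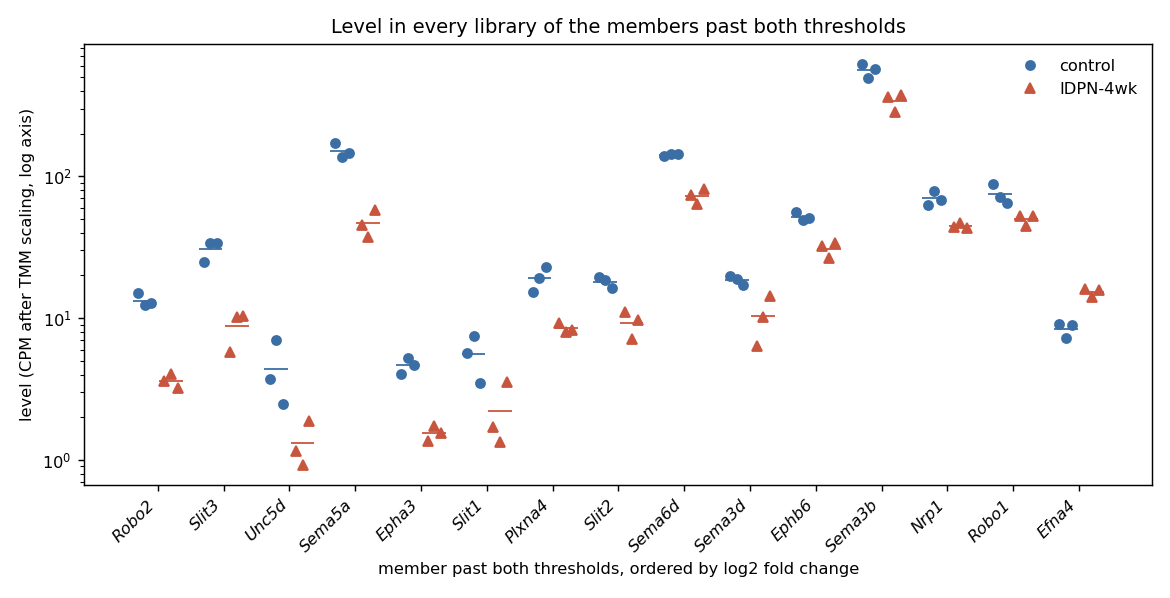
Level in every library (CPM on a log axis) of the 15 guidance genes past both thresholds, ordered by log2-Fold change, with control libraries as circles, IDPN-4wk libraries as triangles and group means as lines. The groups are separated in 14 of the 15 genes, with the exception of Slit1, and Efna4 alone is higher in IDPN-4wk.

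All 3 slit genes were downregulated. Slit3 was at 24.8, 33.6 and 33.7 CPM in control and at 5.75, 10.2 and 10.4 CPM in IDPN-4wk libraries. Each treated library lay well under each control, and IDPN-4wk replicate 1 was the lowest. The decrease was to 28.6% of the control mean (30.7 ± 5.09 against 8.79 ± 2.64 CPM, SD, n = 3; edgeR log2-Fold change -1.79 ± 0.21 SE, Padj = 0.00026). For Slit2, the control levels were 19.4, 18.5 and 16.2 CPM and the IDPN-4wk levels 11, 7.11 and 9.78 CPM. These also did not overlap, and Slit2 fell to 51.5% of control (edgeR log2-Fold change -0.96 ± 0.18 SE, Padj = 0.00347). Slit1, with at most 108 counts in a library, had 5.68, 7.54 and 3.47 CPM in control and 1.72, 1.34 and 3.54 CPM in IDPN-4wk libraries. Here the groups overlapped, since IDPN-4wk replicate 3 was slightly above control replicate 3. The log2-Fold change of Slit1 was -1.34 (SE 0.40, edgeR Padj = 0.0382), and the call was lost without control replicate 1 (-1.33, Padj = 0.0816), control replicate 2 (-1.06, Padj = 0.146), IDPN-4wk replicate 1 (-1.21, Padj = 0.121) or IDPN-4wk replicate 2 (-1.07, Padj = 0.119).

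Robo2, a receptor of slits on growing fibres, was at 15, 12.3 and 12.7 CPM in control and at 3.59, 4.02 and 3.22 CPM in IDPN-4wk libraries. Values within each group were close to each other and the groups were far apart (27.1% of control, edgeR log2-Fold change -1.88 ± 0.19 SE, Padj = 9.48e-05). Robo1, the neighbouring gene with a single coding gene between, was at 88.3, 71.4 and 64.7 CPM in control and at 52.8, 44.3 and 52.1 CPM in IDPN-4wk libraries. The groups did not overlap, but control replicate 1 stood above the other controls. Robo1 passed the fold change threshold narrowly (66.5% of control, edgeR log2-Fold change -0.59 ± 0.12 SE, Padj = 0.00634). It was under that threshold without control replicate 1 (-0.45, Padj = 0.0175), without IDPN-4wk replicate 2 (-0.52, Padj = 0.0297) and with library size alone (-0.48, Padj = 0.0136). Robo4, a receptor of endothelial cells, had 44, 36 and 0 counts in control and 0, 5 and 16 counts in IDPN-4wk libraries. Replicates of Robo4 differed as much as the groups did, and it was not called (edgeR log2-Fold change -2.04 ± 1.07 SE, Padj = 0.213). Robo4 overlaps Robo3, and the protocol does not keep the strand. Robo3 was not tested, having 1, 3 and 2 counts in control and 3, 21 and 9 counts in IDPN-4wk libraries.

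The promoters of Slit3 and Robo2, a ligand and a receptor that were lower together, are shown with those of Sema6d, which was also lower, and of Efna4, which was higher. They are RefSeq windows of 300 bases, from 250 before to 50 after the start, on build GRCr8, which is not the build of the count table. Capitals mark motif matches on either strand. The motif of the GC box was spelled GGGCGG. That of the CCAAT box was spelled as its name. For the E-box, which reads alike on both strands, the letters CAGCTG were searched. The letters TATAAA of the TATA box were searched as well and matched nowhere in these windows.
Slit3, chr10:20075679-20075978, plus strand: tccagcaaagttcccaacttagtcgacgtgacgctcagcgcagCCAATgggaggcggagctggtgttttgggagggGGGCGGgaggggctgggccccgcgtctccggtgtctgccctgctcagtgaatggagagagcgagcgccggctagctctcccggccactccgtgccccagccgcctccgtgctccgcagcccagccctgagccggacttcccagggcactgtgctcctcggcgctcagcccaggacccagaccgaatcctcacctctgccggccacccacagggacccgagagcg
Robo2, chr11:26526363-26526662, minus strand: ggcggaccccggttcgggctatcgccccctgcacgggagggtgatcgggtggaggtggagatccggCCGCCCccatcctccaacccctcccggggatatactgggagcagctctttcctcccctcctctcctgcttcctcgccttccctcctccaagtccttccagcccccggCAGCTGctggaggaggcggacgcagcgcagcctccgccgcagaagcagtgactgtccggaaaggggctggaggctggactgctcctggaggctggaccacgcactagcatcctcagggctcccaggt
Sema6d, chr3:132337106-132337405, plus strand: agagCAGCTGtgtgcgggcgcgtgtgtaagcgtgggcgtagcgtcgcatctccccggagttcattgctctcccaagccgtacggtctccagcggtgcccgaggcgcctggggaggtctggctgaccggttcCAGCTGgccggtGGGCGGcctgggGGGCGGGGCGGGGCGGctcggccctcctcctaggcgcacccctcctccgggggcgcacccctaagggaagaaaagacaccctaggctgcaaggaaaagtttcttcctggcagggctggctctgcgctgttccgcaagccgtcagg
Efna4, chr2:177050664-177050963, minus strand: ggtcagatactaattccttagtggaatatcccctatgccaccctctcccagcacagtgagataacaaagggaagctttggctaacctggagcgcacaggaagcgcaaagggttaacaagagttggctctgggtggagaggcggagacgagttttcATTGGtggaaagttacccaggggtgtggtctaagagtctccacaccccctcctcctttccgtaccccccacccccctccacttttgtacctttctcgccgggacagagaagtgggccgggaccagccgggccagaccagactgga
The GC box was found once in Slit3, once in Robo2 and 4 times in Sema6d, where 3 of the matches share bases, and 0 times in Efna4. CCAAT was found once in Slit3 and once in Efna4, and the E-box once in Robo2 and 2 times in Sema6d. In the table, 54 of the 69 guidance genes had a promoter, and TATAAA was in 0 of the 54 windows, beside 14.2% of all 33469 windows of the same length. The GC box was in 55.6% of the 54 windows and 33.1% of all, the E-box in 25.9% and 15.1%, and CCAAT in 31.5% and 37.5%. The median GC content was 63.8% for the guidance genes and 51.7% for all windows. The sets are unlike, as each guidance gene is a coding gene with a single window. The full set was not limited to coding genes or to a single window per gene. Of the 8 windows of downregulated genes, 3 held the GC box, 4 held CCAAT and 3 held the E-box.

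Slit2 and Slit3 have in common that a gene of the same microRNA lies within each of them on GRCr8, Mir218-1 in Slit2 and Mir218-2 in Slit3. Both give rise to the same mature sequence, which is shown because it links these slit genes, with its seed (bases 2 to 8) in capitals. It lies at chr10:20572547-20572567 on the plus strand and at chr14:66922413-66922433 on the minus strand.
rno-miR-218a-5p: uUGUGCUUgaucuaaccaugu
The row of Mir218-2 was listed at 0 counts in all 6 libraries. Libraries primed on poly(A) tails are not made to capture mature microRNAs, so their level was not measured.

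**Figure D3:**
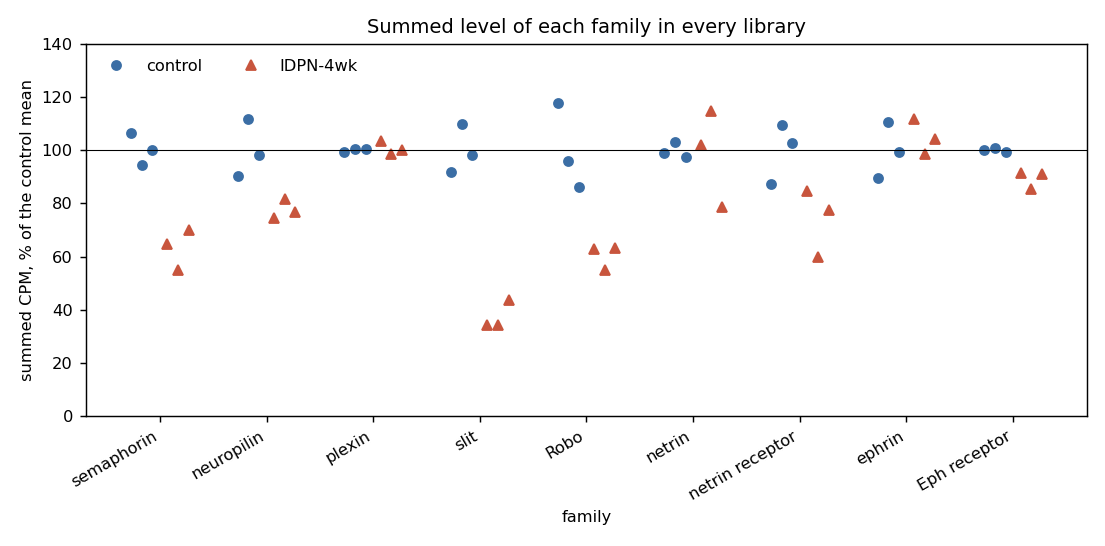
Summed CPM of each family in every library, as a percentage of the family's control mean (vertical axis), with control libraries as circles and IDPN-4wk libraries as triangles. Slits (37.3% of control on average), Robo receptors (60.4%), semaphorins (63.0%), netrin receptors (74.4%), neuropilins (77.6%) and Eph receptors (89.3%, near the 92.7% of the sum over all genes) show no overlap between groups, while ephrins (105%), plexins (101%) and netrins (98.9%) do.

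Of the 20 semaphorin genes, all tested, 4 were downregulated and 0 upregulated in edgeR and likewise in DESeq2, and 18 had a negative log2-Fold change. At an unadjusted p under 0.05 there were 10 below 0 and 0 above, where 17.4% and 15.6% of all tested genes were. The median over the family was -0.32. Of the difference between groups in its summed CPM, 85% came from Sema3b, Sema5a and Sema6d. Sema5a, a membrane semaphorin with thrombospondin repeats, had 173, 137 and 145 CPM in control and 45.7, 37.3 and 57.8 CPM in IDPN-4wk libraries. Every treated library was far below every control, with 636 to 899 counts against 1957 to 2674. Sema5a fell to 31% of control (edgeR log2-Fold change -1.69 ± 0.15 SE, Padj = 4.42e-05). A predicted coding gene overlaps Sema5a on GRCr8, and the protocol does not keep the strand. The same holds for Unc5a, Ephb4, Epha1, Sema6a and Ntn5, which also overlap a coding gene. Its close relative Sema5b, at no more than 25 counts in a library, was not called (edgeR log2-Fold change -0.96 ± 0.52 SE, Padj = 0.224).

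Sema6d, a ligand of A-type plexins, was at 140, 144 and 143 CPM in control and at 73.9, 63.5 and 81.3 CPM in IDPN-4wk libraries. The controls were almost equal and the treated libraries all lay well below them (51.4% of control, edgeR log2-Fold change -0.96 ± 0.09 SE, Padj = 7.39e-05). For the other class 6 semaphorins the log2-Fold change was -0.23 for Sema6a (edgeR Padj = 0.11), -0.18 for Sema6b and 0.10 for Sema6c. Within class 6, Sema6d was thus the only gene called.

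Among the secreted class 3 semaphorins, Sema3b and Sema3d were downregulated. Sema3b, which binds neuropilins, was at 619, 493 and 574 CPM in control and at 363, 282 and 377 CPM in IDPN-4wk libraries. Groups did not overlap, and replicate 2 of each group was its lowest (60.6% of control, edgeR log2-Fold change -0.72 ± 0.12 SE, Padj = 0.00185). Sema3f, a few genes away from Sema3b, was at 122% of control and not called (edgeR log2-Fold change 0.29 ± 0.16 SE, Padj = 0.22). Sema3d was at 19.7, 18.8 and 17.1 CPM in control and at 6.39, 10.2 and 14.4 CPM in IDPN-4wk libraries. The treated animals differed from each other by more than the controls did. The log2-Fold change of Sema3d was -0.84 (SE 0.23, edgeR Padj = 0.029), and the call held in only 1 of the 6 fits without a library. Padj was 0.0781, 0.0765 and 0.0612 without control replicate 1, 2 or 3, 0.0627 without IDPN-4wk replicate 1 (log2-Fold change -0.60) and 0.0825 without IDPN-4wk replicate 2, while the log2-Fold change was -1.16 without IDPN-4wk replicate 3.

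Sema3e, a ligand of Plxnd1, was lower by less than the fold change threshold (70.5% of control, edgeR log2-Fold change -0.51 ± 0.15 SE, Padj = 0.0342). The Padj of Sema3e was 0.0195 without IDPN-4wk replicate 3 (-0.62), but over 0.05 without any other library (0.0764, 0.106 and 0.0638 without control replicates 1, 2 and 3, 0.0617 and 0.0881 without IDPN-4wk replicates 1 and 2) and with library size alone (0.0628). Sema3c (-0.37), Sema3g (-0.09) and Sema3a (-0.22, at most 40 counts in a library) did not pass. All 6 class 4 semaphorins, which are membrane ligands known mainly from immune and nerve cells, had values below 0, from -0.45 to -0.13, and 0 were called in edgeR or DESeq2, with 4 below 0 at an unadjusted p under 0.05 (17.4% of all tested genes). Sema4a (-0.33, edgeR Padj = 0.0292) and Sema4f (-0.45, edgeR Padj = 0.0314) passed the adjusted p alone. Both lost it without control replicate 2 (Padj = 0.105 for Sema4a and 0.0935 for Sema4f), control replicate 3 (0.0931 and 0.092), IDPN-4wk replicate 1 (0.0801 and 0.117) or IDPN-4wk replicate 2 (0.094 and 0.111), and with library size alone (0.0969 and 0.0628). Without IDPN-4wk replicate 3, Sema4f passed both thresholds (-0.64, Padj = 0.00137). For Sema7a, a semaphorin held by a lipid anchor, the levels were 21.1 ± 1.26 CPM in controls and 19.8 ± 2.66 CPM after IDPN (SD of 3 libraries; edgeR log2-Fold change -0.09 ± 0.13 SE, Padj = 0.673).

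Of the 2 neuropilins and 9 plexins, the receptors of semaphorins, 1 each was downregulated. Nrp1, the co-receptor of class 3 semaphorins and of vascular endothelial growth factor, was at 62.3, 78.6 and 68.6 CPM in control and at 43.6, 46.6 and 43.2 CPM in IDPN-4wk libraries. The treated libraries were close together and all below the controls. Nrp1 fell to 63.7% of control (edgeR log2-Fold change -0.65 ± 0.10 SE, Padj = 0.0011). It was under the fold change threshold without control replicate 2 (-0.56, Padj = 0.00482) and with library size alone (-0.54, Padj = 0.00274). The other neuropilin, Nrp2, was at 26.8 ± 2.21 CPM in controls and 30.5 ± 1.99 CPM after IDPN (SD of 3 libraries; edgeR log2-Fold change 0.19 ± 0.11 SE, Padj = 0.253).

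The plexin was Plxna4, which was at 15.2, 19.3 and 23.1 CPM in control and at 9.27, 7.94 and 8.23 CPM in IDPN-4wk libraries. The controls spread more than the treated libraries, and the groups did not overlap (44.2% of control, edgeR log2-Fold change -1.18 ± 0.17 SE, Padj = 0.000959). Plxna4 is a receptor for class 3 semaphorins, with neuropilins, and for class 6 semaphorins. Plxna1 (log2-Fold change 0.01, SE 0.11), Plxna2 (-0.37, SE 0.14, edgeR Padj = 0.0956) and Plxna3 (-0.17, SE 0.10) did not pass. The 3 B-type plexins, among them the class 4 semaphorin receptors Plxnb1 and Plxnb2 and the Sema5a receptor Plxnb3, had log2-Fold changes of -0.05 (Plxnb1), 0.14 (Plxnb2) and 0.13 (Plxnb3). Plxnb2 was at 428 ± 10.4 CPM in controls and 473 ± 34.8 CPM after IDPN (SD of 3 libraries; edgeR Padj = 0.209). Plxnd1 was at 87.6% of control (-0.19, SE 0.07, edgeR Padj = 0.0912) and Plxnc1, the receptor of Sema7a, at 102% (0.03, SE 0.23).

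Of the Eph receptors, 11 of 13 were tested, 2 were downregulated and 0 upregulated, with 5 below 0 and 1 above at an unadjusted p under 0.05 (17.4% and 15.6% of all tested genes). Epha3 had 4.07, 5.24 and 4.67 CPM in control and 1.36, 1.75 and 1.54 CPM in IDPN-4wk libraries. These were few counts, from 63 to 75 against 19 to 34, but the groups lay far apart (33.4% of control, edgeR log2-Fold change -1.57 ± 0.27 SE, Padj = 0.0028). Ephb6, a member without kinase activity, was at 55.6, 48.9 and 51.1 CPM in control and at 32, 26.5 and 34 CPM in IDPN-4wk libraries. The treated libraries were all lower than the controls, and Ephb6 fell to 59.6% (edgeR log2-Fold change -0.75 ± 0.11 SE, Padj = 0.00095). Epha4 was lower and Epha2 higher by less than the fold change threshold. Epha4, known from the guidance of auditory nerve fibres, was at 75.4% of control (-0.41, SE 0.10, edgeR Padj = 0.0146), and Epha2 at 147% (0.56, SE 0.18, edgeR Padj = 0.0475). For Epha2, the Padj was over 0.05 in all 6 fits without a library (0.0542 to 0.176), with DESeq2 (0.0639), with median-ratio factors (0.0509) and without the filter on low counts (0.0538), while it passed both thresholds with library size alone (0.66, Padj = 0.0196). For Epha4, the Padj was over 0.05 without control replicate 3 (0.0573) or IDPN-4wk replicate 2 (0.0512).

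Ephb1 (log2-Fold change -0.65, SE 0.22) passed the fold change threshold but not the adjusted p (edgeR Padj = 0.0589), and Epha5 (-1.27, SE 0.51, edgeR Padj = 0.111) likewise. DESeq2 called Ephb1 downregulated in addition to all 15 genes called by edgeR. The B-type receptors Ephb3 and Ephb4 were at 92.1% and 110% of control (edgeR Padj = 0.266 and 0.183). Epha1 (0.28), Epha7 (-0.21) and Ephb2 (-0.15) also did not pass. Summed over the family, Eph receptors were at 388 ± 3.67 CPM in controls and 347 ± 13.5 CPM after IDPN (SD, n = 3), which is 89.3% of control and near the 92.7% of the sum over all genes.

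Efna4, an ephrin held by a lipid anchor, was the only upregulated guidance gene. It was at 9.03, 7.19 and 8.98 CPM in control and at 16.1, 14.1 and 15.8 CPM in IDPN-4wk libraries. Every treated library was over 1.5 times any control (182% of control, edgeR log2-Fold change 0.86 ± 0.15 SE, Padj = 0.00316). Efna4 lies in a row with Efna3 and Efna1 on GRCr8, with no coding gene between. Efna1 was at 53.4 ± 7.64 CPM in controls and 60.1 ± 3.15 CPM after IDPN (SD of 3 libraries; edgeR log2-Fold change 0.17 ± 0.11 SE, Padj = 0.29), and Efna3 was not tested, with 6 to 9 counts in control and 11 to 17 counts in IDPN-4wk libraries. Of the remaining ephrins, Efna2 (0.72, SE 0.37, edgeR Padj = 0.21) and Efna5 (-0.64, SE 0.29, edgeR Padj = 0.149) were low in counts and did not pass. The B-type ephrins, which span the membrane, had log2-Fold changes of -0.21 (Efnb1, edgeR Padj = 0.152), 0.10 (Efnb2) and 0.44 (Efnb3).

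Of the 4 netrins, 0 were called in edgeR or DESeq2 and 0 had an unadjusted p under 0.05 in edgeR. Ntn4, a component of basement membranes, was at 11.5 ± 2.14 CPM in controls and 12.4 ± 1.41 CPM after IDPN (SD of 3 libraries; log2-Fold change 0.11, SE 0.17). The log2-Fold change of Ntn1, which is needed for canal formation in the embryo, was -0.50 with a wide error (SE 0.38), as IDPN-4wk replicate 2 had 4.07 CPM against 1.58 and 1.87 CPM in the other treated libraries. Those of Ntn3 (0.19, SE 0.38) and Ntn5 (-0.16, SE 0.33) were smaller than their SE. Ntn1, Ntn3 and Ntn5 had from 19 to 79 counts in a library.

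Among the netrin receptors, Unc5d was downregulated. It had 3.74, 6.98 and 2.48 CPM in control and 1.15, 0.928 and 1.87 CPM in IDPN-4wk libraries. Groups did not overlap but the controls were widely spread, from 35 to 100 counts. The log2-Fold change was -1.75 (SE 0.43, edgeR Padj = 0.0173), and the call was lost without control replicate 2 (-1.25, Padj = 0.0849), IDPN-4wk replicate 1 (-1.67, Padj = 0.0645) or IDPN-4wk replicate 2 (-1.53, Padj = 0.0669). Unc5a (-0.80, SE 0.34, edgeR Padj = 0.124) and Unc5c (-0.51, SE 0.22, edgeR Padj = 0.134) were not past the threshold, and Unc5b had a value of 0.14 (SE 0.20). Dcc, the attractive netrin receptor, was at most at 8 counts in a library and was not tested. Other untested genes were Epha10, with at most 5 counts, Unc5cl, with at most 13, and Epha8, which had 0 counts in every library, where a count of 0 allows up to 3 counts, or 0.155 to 0.216 CPM depending on the library.

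**Figure D4:**
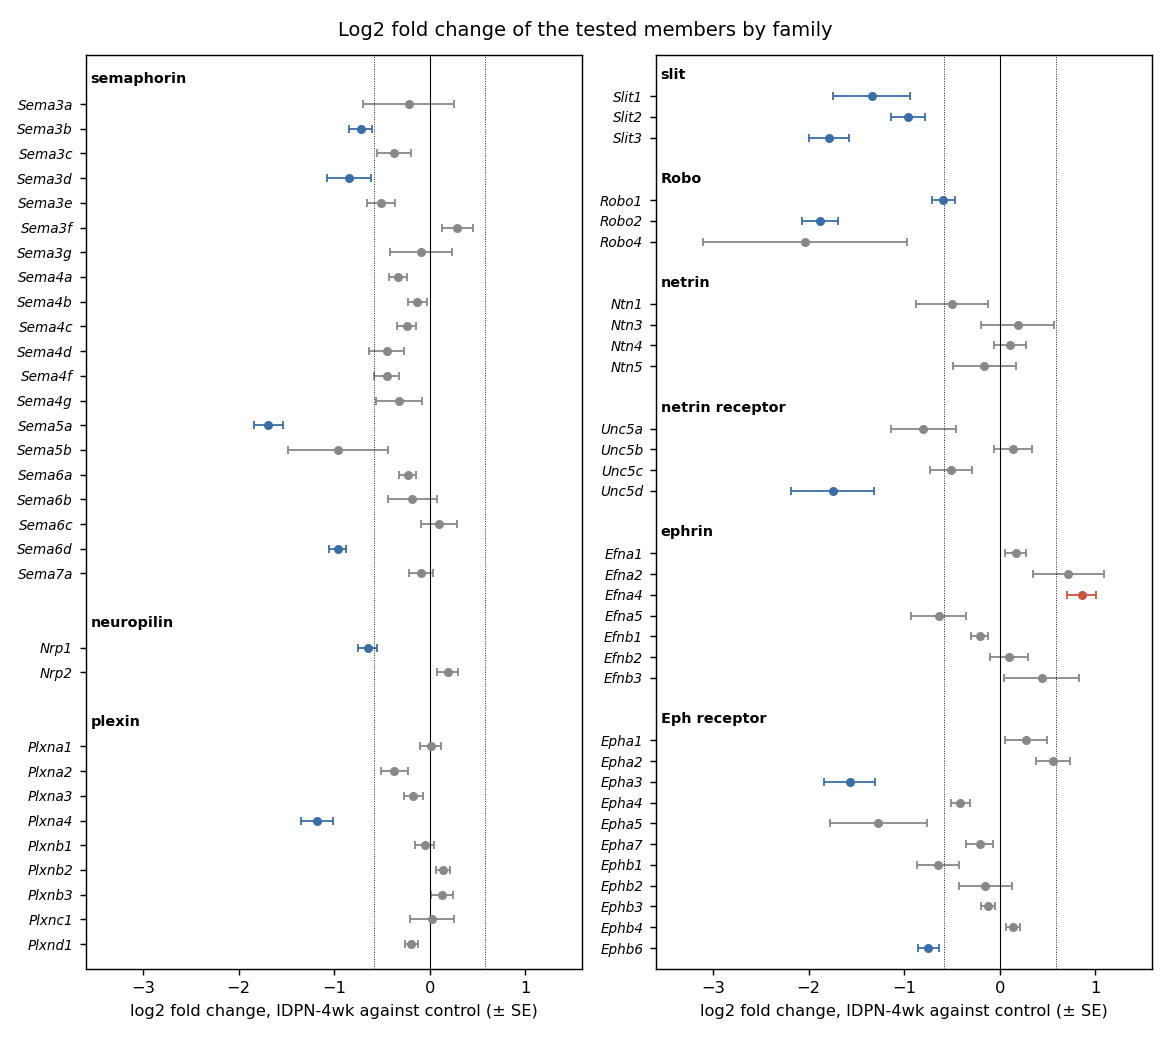
Log2-Fold change of IDPN-4wk against control (horizontal axis, points with SE) for the 63 tested guidance genes, grouped by family. Points are blue for downregulated, red for upregulated and grey for other genes, and dotted lines mark a fold change of 1.5. All tested slits and Robo receptors lie below 0, and the plexins other than Plxna4 lie between -0.37 and 0.14.

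Further genes of the pathway were read from a pair of lists. In the first, of other guidance ligands and receptors, 38 genes were tested, 13 (34.2%) were downregulated, 0 were upregulated (12 and 0 in DESeq2, and 19 below 0 and 2 above at an unadjusted p under 0.05 in edgeR, where 17.4% and 15.6% of all tested genes were), and the median log2-Fold change was -0.36. Examples were Cxcl12, a chemokine that directs cell migration (30.3% of control, edgeR log2-Fold change -1.72 ± 0.10 SE, Padj = 8.48e-06), Reln, a secreted matrix protein (-1.10, SE 0.14), and its receptors Vldlr (-0.67) and Lrp8 (-0.72). The adhesion molecules Dscam (-1.91), Nrcam (-0.78) and Chl1 (-0.95) were downregulated as well, whereas Neo1 (0.20), a receptor related to Dcc, and Rgma (0.07), its ligand, were not called. In the second list, of proteins that carry guidance signals inside the cell, 61 genes were tested, 6 (9.84%) were downregulated and 1 (1.64%) was upregulated, beside 6.62% and 3.09% of all tested genes, and the median was -0.01. At an unadjusted p under 0.05, 18 were below 0 and 8 above. The downregulated genes included Pak3 (-0.88) and Dock1 (-0.83), and Grb7 (0.77) was upregulated. Rac1 (0.17), Rhoa (0.19) and Cdc42 (-0.22), the small GTPases at the centre of these pathways, were not called.

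Markers of several cell types differed between groups, those of HCs and supporting cells with the lowest sums relative to control (38% and 58.2%). Abundant genes weigh the most in these sums, with Spp1 at 4520 of the 8130 CPM of HC markers in control. By the median log2-Fold change, HC markers were the lowest (-1.06). Dark cell and melanocyte (-0.55) and Schwann cell markers (-0.50) were then below supporting cell markers (-0.32). Of 26 HC markers tested, 17 were downregulated and 0 upregulated in edgeR and in DESeq2, with 20 below 0 at an unadjusted p under 0.05 (17.4% of all tested genes), and their summed level was from 7530 to 8910 CPM in control and from 2610 to 3900 CPM in IDPN-4wk libraries. Among 12 supporting cell markers, 4 were downregulated, and the sum was from 12700 to 13900 CPM against 6930 to 8520 CPM. These 4 were Otog, Otoa, Otogl and Gjb6, at 51.1% to 55% of control. Sox9 (118%) and Hes1 (128%) were above control and not called. For 10 Schwann cell markers, the sums overlapped (8920 to 11300 against 6060 to 9080 CPM), but 2 were downregulated. A further 4 passed the adjusted p alone, as did 1384 of all 14352 tested genes. At an unadjusted p under 0.05, 7 Schwann cell markers were below 0 and 1 above, and the median log2-Fold change was -0.50. For 10 dark cell and melanocyte markers, 3 of them downregulated, the sums were from 2010 to 2590 and from 1480 to 1640 CPM. The neuron markers, 9 tested, had 2 downregulated and 3 upregulated genes and summed to 108 to 122 and 92.8 to 98.3 CPM. Snap25 (37.1% of control) and Rbfox3 (43.4%) were downregulated. Uchl1 (173%), Prph (592%) and Nefh (422%) were upregulated, the last 2 with at most 83 and 53 counts in a library. Sums of endothelium markers overlapped between groups (390 to 519 against 374 to 421 CPM), and of the 6 tested, 0 were called in edgeR or DESeq2, with 2 below 0 at an unadjusted p under 0.05 (17.4% of all tested genes), of which Tek (-0.36, Padj = 0.0475) passed the adjusted p alone. Sums also overlapped for stroma markers (1020 to 1190 against 993 to 1110 CPM), but of the 9 tested, Mgp (270% of control) and Col1a1 (168%) were upregulated and Lum (37.8%) was downregulated. Likewise, among 11 macrophage and leukocyte markers (133 to 192 against 100 to 191 CPM), Cd74 was downregulated (15.4% of control) and C1qb upregulated (164%). At an unadjusted p under 0.05, supporting cell markers numbered 7 below 0 and 2 above, dark cell and melanocyte markers 6 and 1, neuron markers 4 and 3, stroma markers 3 and 3, and macrophage and leukocyte markers 1 and 2. Of the marker genes, Stmn2, of neurons, was the only one at 0 in any library. The part of these cell types in the lower levels of guidance genes was not tested.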

How the data were processed

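Vestibular epithelium of 3 control and 3 IDPN-4wk rats was compared, 1 library per animal. The authors primed RNA on poly(A) tails (SMART-seq2), mapped paired-end reads with STAR 2.5.3a to Rnor6.0 and estimated counts with RSEM (1.3.0 in the submitters' processing notes). The deposited expected counts were whole numbers, with 0 values that were not. RSEM divides reads shared by similar genes, and 0 guidance genes had counts identical to another row. Strand was not kept.

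Genes were filtered with filterByExpr (minimum count 10, total 15), scaled with TMM and tested with edgeR 4.0.16 in R 4.3.3, IDPN-4wk against control, with Benjamini-Hochberg adjustment over 14352 genes. SE was taken from the quasi F statistic. The script was tested on simulated data. The labels do not number replicates, so numbers follow accession order. Guidance genes and gene lists were chosen with earlier results of these data known. Named with the value in every library were the genes past both thresholds, and with the log2-Fold change those past the adjusted p alone and those of small family roles. Genes removed by the filter were named with their highest count, and the remaining tested genes to account for every one. Alternatives were DESeq2 1.42.0, median-ratio factors, library size alone, no filter, glmTreat, adjusted p alone and leaving out each library. Promoters and microRNAs were matched by symbol to RefSeq (GRCr8). Reads carried no molecular identifiers, so the limit set by a count of 0 covers counting error only.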

Additional observations from a re-analysis of the deposited data

How the results depend on the processing

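The 14 downregulated and 1 upregulated guidance genes were 15 and 1 with DESeq2 and without the filter on low counts, and 14 and 1 with median-ratio factors. In these 3 settings all 15 genes of the edgeR fit were called. Over all genes, downregulated and upregulated ones numbered 1000 and 454 of 15543 with DESeq2. They were 1004 and 492 of 18838 without the filter, and 967 and 427 of 14352 with median-ratio factors. With library size alone the guidance genes were 12 and 2 (780 and 762 of all 14352 tested genes), and their median log2-Fold change was -0.12. With glmTreat, which tests against the fold of 1.5 itself, 6 were downregulated (Sema5a, Sema6d, Slit3, Robo2, Plxna4 and Epha3) and 0 upregulated. Of all 14352 tested genes, glmTreat called 354 downregulated and 99 upregulated. With the adjusted p alone the counts were 18 and 2 for guidance genes, and 1646 and 1132 for all 14352 tested genes. In the 6 fits without a library, downregulated guidance genes numbered from 10 to 17 and upregulated ones 1, with medians from -0.31 to -0.21. Over all genes, these fits called from 768 to 1095 downregulated and from 317 to 486 upregulated, of 14518 to 14581 tested. Of the 15 called guidance genes, 6 were called in every alternative fit. The 5 past the adjusted p alone each lost it without at least 1 of the libraries. Of these 20 genes, 0 changed direction. The other pathway genes numbered 19 downregulated and 1 upregulated, which became 15 and 2 with library size alone and 26 and 2 with the adjusted p alone. With glmTreat they were 6 and 0, and without a library from 15 to 20 and from 1 to 2 (2 without control replicate 1). No paired analysis was possible because the labels carry no replicate numbers. The genes Sema5b, Epha5 and Ntn3 had at most 25, 29 and 45 counts in a library, and the part of depth in their missing calls was not tested.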
